A study of Mus musculus with 9 samples.

Results

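This account describes the transcripts that were lower first after transcription was blocked with actinomycin D in mature mouse medullary thymic epithelial cells (mTEChi), between 1.5 h and 3 h of treatment. mTEChi are the MHC class II high cells of the thymic medulla that express Aire, a protein which lets them transcribe genes otherwise restricted to other tissues. The cells came from pooled thymi of wild-type B6 mice, were sorted as MHC-II high mTEC and were kept in medium with 1 µM actinomycin D, which intercalates into DNA and stops RNA polymerases. Of the 9 libraries of the series, 5 form the actinomycin D time course, with 1 library at each of 0, 1.5, 3, 6 and 12 h, and the others compare Aire-KO with wild-type mTEChi and mTEChi with mTEClo. The treatment protocol names 3, 6 and 12 h, and the 1.5 h time comes from that library's own label. The 1.5, 3, 6 and 12 h libraries were made with SMARTer low-input amplification and Nextera, and the 0 h library with another kit (TruSeq), so that kit and treatment cannot be told apart in any comparison with 0 h. The methods give 4-wk-old mice for the thymus preparation, and the labels do not give the sex of the mice.

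Reads counted per RefSeq entry were divided by the total of their library and expressed as CPM, the reads of each library scaled to the same total, and every change given below is the CPM at 3 h over the CPM at 1.5 h. The 20638 RefSeq entries with at least 20 reads at 1.5 h were taken, of 25537 in the files, and they stand for 15750 gene symbols, since isoforms of a gene are listed separately and often share the same reads. Entries with 18 and 19 reads at 1.5 h, just outside, had a median of 7 and 12.5 reads at 3 h, and those with 20 and 21 reads, just inside, 11 and 15. With 1 library per time there is no replicate and no test of a difference. Each ratio therefore carries an exact 95% binomial interval of its reads, called the counting interval, which covers counting error only, since PCR copies of 1 molecule count as separate reads. A change was called when the ratio was at most 0.5 or at least 2, with an entry at 0 reads at 3 h taken at a floor of 3 reads.

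An mRNA whose synthesis stops declines at the pace of its own decay, which in mammalian cells ranges from minutes to days. Messages of immediate early transcription factors, cytokines and feedback inhibitors are textbook examples of fast decay, and many of them carry AU-rich elements, repeats of ATTTA in the 3' untranslated region (3' UTR) that are bound by proteins such as Zfp36, which recruit the enzymes that shorten the poly(A) tail. Messages for ribosomal proteins, respiratory chain subunits and glycolytic enzymes are long-lived in most cells. Because CPM are shares of a library, they rise for stable transcripts when the pool shrinks, and in bulk libraries fewer cells of a type and less RNA per cell cannot be told apart.

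The sequences that bear on this are the AU-rich stretches of 8 abundant genes of these classes. Each is a window of 30 bases round the first full nonamer TTATTTATT (in capitals) of the 3' UTR, read on the coding strand from GENCODE vM1 transcripts of build mm9, the build the reads were aligned to, and written 5' to 3' with T for U. They were picked by a fixed search among the abundant members of the short-lived gene lists, and their measured ratios follow further on.
Fos (chr12:86818053-86818082, plus strand): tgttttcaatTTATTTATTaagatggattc
Zfp36 (chr7:29161969-29161998, minus strand): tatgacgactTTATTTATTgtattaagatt
Nfkbia (chr12:56590594-56590623, minus strand): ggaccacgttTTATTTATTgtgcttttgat
Dusp1 (chr17:26643103-26643132, minus strand): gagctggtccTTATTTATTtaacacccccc
Cish (chr9:107203708-107203737, plus strand): tatacagtatTTATTTATTtattctccttg
Birc3 (chr9:7848780-7848809, minus strand): gaaattcctgTTATTTATTggatgacattt
Plk2 (chr13:111190942-111190971, plus strand): aataaactttTTATTTATTacagccccaag
Plk3 (chr4:116801322-116801351, minus strand): tggaccacttTTATTTATTaacagacattt

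In Fos, the partner of Jun in the AP-1 transcription factor, the nonamer starts 655 bases into a 3' UTR of 815 bases that holds 4 copies of ATTTA. Zfp36, the AU-rich element binding protein itself, has 3 copies, and Dusp1, a phosphatase that switches off MAP kinases, 4 with 2 nonamers. Nfkbia, the inhibitor that holds NF-kB in the cytoplasm, has 2. Overlapping copies were counted, on the sense strand only, and each nonamer also contains 1 ATTTA. Of 19915 3' UTRs searched, 1 per gene, 59.1% held ATTTA and 6.09% the nonamer.

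The libraries also differed in genes of the Y chromosome, which only male cells express. Eif2s3y, a translation initiation factor, had 20.2, 61.5, 54.5 and 36.6 CPM at 1.5, 3, 6 and 12 h, with a ratio of 3 h over 1.5 h of 3.05 (wider interval, explained below, 2.15 to 4.22). Ddx3y, an RNA helicase, had 16.5, 42.4, 21.8 and 19.5 CPM, and the histone demethylases Kdm5d and Uty 10.7, 24.0, 23.6 and 20.04 CPM and 12.6, 26.1, 5.40 and 5.72 CPM. Their ratios were 2.57, 2.25 and 2.06, so that all 4 were at least 2-fold higher at 3 h, against 5.96% of all genes, and at 0 h they had 50.01, 43.2, 24.3 and 35.5 CPM. These genes were chosen after the value of Eif2s3y had been seen. The methods do not say whether each time had its own pool of mice. With 1 library per time, a difference between libraries, or between pools if there were several, cannot be told apart from a difference between times. This holds here and in any ratio below.

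Between 1.5 h and 3 h most transcripts kept their share of the library. The median log2 ratio of the 20638 entries was -0.03, 2161 entries (10.5%) were at least 2-fold lower and 1192 (5.78%) at least 2-fold higher. Counted once per gene symbol, 1705 of 15750 genes (10.8%) were lower and 938 (5.96%) higher. The balance of the calls depends on the minimum of reads, which is set on the 1.5 h library alone: with a mean of at least 20 reads over both libraries 1578 entries were lower and 1484 higher, and with no minimum 2835 and 2734, that is 51.5% and 50.9% of calls lower against 64.4%. It also depends on the scaling. With both libraries scaled to their summed ribosomal protein reads, the median moved up by 0.23, 1754 entries were called lower and 2087 higher, that is 45.7% of calls lower. A ratio that lies below 1 by less than this shift with totals is then above 1. Changes of gene lists are therefore set beside the median of all genes.

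The lower calls lay among entries with few reads. Of the 2161 entries called lower, 1753 (81.1%) had under 200 reads at 1.5 h, 815 (37.7%) had none at 3 h, and 10 had at least 1000 reads at 1.5 h. The higher calls were spread alike, with 989 of 1192 (83.0%) under 200 reads. Among entries with 20 to 49 reads at 1.5 h, 34.5% were called lower and 19.6% higher, and the quartiles of their log2 ratios ran from -2.28 to 0.82. Among those with 200 to 499 reads 7.04% were called lower, and with 1000 to 4999 reads 0.245%, where the quartiles ran from -0.26 to 0.24. The median was -0.02 in the first of these bands and -0.03 in the last, and -0.13 in the 559 entries with 5000 reads or more.

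**Figure D1:**
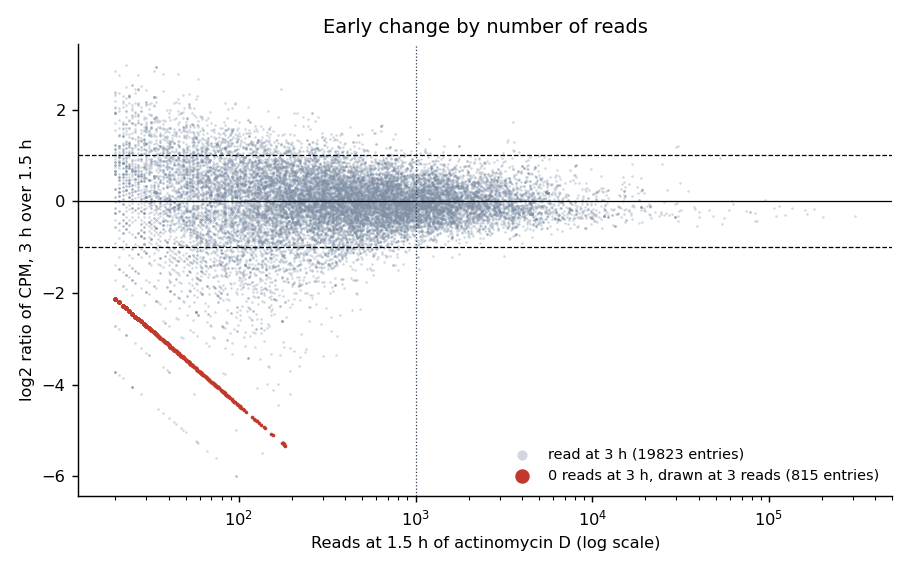
Each point is a RefSeq entry, with its reads at 1.5 h on a log axis against the log2 ratio of CPM at 3 h over 1.5 h. Dashed lines mark 2-fold, the dotted line 1000 reads, and red points are the 815 entries with 0 reads at 3 h, drawn at the floor of 3 reads. The spread narrows steadily to the right, and no entry with 200 or more reads at 1.5 h was at 0.

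The 3 h library listed many entries at 0 and few at low counts. At 3 h 4561 entries were at 0 and 515 had 1 to 9 reads, whereas at 1.5 h 1323 were at 0 and 2310 had 1 to 9 reads, from totals of 13953047 and 21124165 reads. Entries with 20 to 49 reads at 1.5 h had 25.3 reads on average at 3 h, yet 26.3% of them had none, and of those with 50 to 99 reads 6.71% had none. A Poisson count with those shares of 0, and that of entries with 100 to 199 reads, would have 1 event per 18.96, 19.9 and 22.3 reads at 3 h, and the same sum over low entries of the 0 h library gives 1.64 to 2.04 at 1.5 h. A second interval, called the wider interval below, divides the reads by 19.9 and 1.66 before the same binomial calculation. It was added after the counts had been seen. By the counting interval 1034 genes (6.57%) lay wholly below 0.5 and 319 (2.03%) wholly above 2, but by the wider interval 0 (0.00%) and 32 (0.203%) did. Against no change, 862 genes (5.47%) lay wholly below 1 and 1340 (8.51%) wholly above 1 by the wider interval. The 3 h divisor was drawn from the shares of entries at 0, so a real fall to 0 counts toward it. No gene at 0 at 3 h had enough reads at 1.5 h to lie wholly below 0.5. The counts below and above by the wider interval therefore give no balance of directions.

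The 30 genes with the lowest upper counting limit were all at 0 reads at 3 h. They had 92 to 183 reads at 1.5 h, or 4.36 to 8.66 CPM. With 0 reads at 3 h taken as the floor of 3 reads, they were 20.3-fold (the least read of them) to 40.3-fold lower. These folds depend on the floor and are not lower bounds. Shisa2, which retains Fgf and Wnt receptors in the endoplasmic reticulum, had 183 reads at 1.5 h and 0 at 3 h, and then 173 at 6 h and 25 at 12 h. Ormdl3, a brake on sphingolipid synthesis, had 181, 0, 118 and 0 reads at the same times. Tmem39b, a membrane protein, had 156, 0, 206 and 7. These 3 were thus read again at 6 h, at 15.3, 10.4 and 18.2 CPM, above their 1.5 h levels of 8.66, 8.57 and 7.38 CPM.

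Genes of the same set with no read at 6 h either were Pcdh20, a protocadherin of cell adhesion, with 126 reads at 1.5 h, Prlr, the prolactin receptor, with 130, Cbx2, a Polycomb subunit that reads histone methylation, with 122, Nme6, a nucleoside diphosphate kinase, with 107, and Tmem121 with 102, and these 5 also had none at 12 h. Some members of the set are typical of other tissues. Among them were Nppb, a heart natriuretic peptide (134 reads at 1.5 h), Krt82, a hair keratin (139), and Dct, a melanin enzyme (103). Others were Wap, a milk protein (102), Rbp4, the plasma retinol carrier (94), and Havcr1, a kidney injury marker (97). The share of such genes was not counted, neither in the set nor among other genes with as few reads. Of the 30, 14 had reads at 6 h, 22 had reads at 12 h and 5 had none at either. Over all 634 genes at 0 at 3 h, 223 (35.2%) had reads at 6 h and 312 (49.2%) at 12 h, from a median of 33 reads at 1.5 h. For the 26 of them with at least 100 reads at 1.5 h the shares were 46.2% and 69.2%, and 61.2% and 70.9% for genes with fewer than 200 reads at 1.5 h (median 84) that were read at 3 h. The wider interval reached 0.619 as its upper limit for Shisa2 and 1.25 for Nat8f4, the 30th, and it lay below 1 for 16 of the 30. The remaining members of the set were Btbd9, C1qtnf1, Lyplal1, Klhl38, D230025D16Rik, Slc19a2, Tmx4, Slc46a1, Castor1, Tuba3a, Bpifb4, Calhm6, Gpx7, Slc16a9 and Mpeg1.

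The opposite end also held genes with few reads. The 15 genes with the highest lower counting limit had 20 to 173 reads at 1.5 h and were 4.93- to 7.19-fold higher at 3 h. Hoxd4, a homeobox gene of axial patterning, had 173, 622, 149 and 20 reads at 1.5, 3, 6 and 12 h, a ratio of 5.44 (counting interval 4.59 to 6.48) with a wider interval of 3.53 to 8.19. Foxb2, a forkhead factor, had 45, 205, 112 and 0 reads, and Sox10, the neural crest factor, 48, 159, 77 and 7. In all 3 the 3 h library stood above its neighbours in time. The others were Neil2, a DNA glycosylase, Dab2, an endocytic adaptor, Zfhx4, Tmprss5, Svop, Tas2r109, a bitter taste receptor, Kcng4, Zfp382, Ifnlr1, the interferon lambda receptor, Gdpd4, Ybx2 and Tlx1, and 6 of the 15 had no read at 6 h.

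Genes with at least 1000 reads at 1.5 h, a limit set after the spread at low counts had been seen, gave a steadier picture. Of 3421 such genes, 9 (0.263%) were at least 2-fold lower and 18 (0.526%) at least 2-fold higher, around a median log2 ratio of -0.05. With a limit of 0.8 for the ratio 718 (21.0%) were lower, and with a limit of 1.25 609 (17.8%) higher. The wider interval lay wholly below 1 in 587 of them (17.2%) and wholly above 1 in 578 (16.9%). The genes named next at either end were chosen after their values had been seen, as the 30 with the lowest upper and the 30 with the highest lower counting limit, and no test was made of them.

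The lowest ratio belonged to Maoa, the mitochondrial monoamine oxidase, at 49.3 CPM at 1.5 h and 17.7 at 3 h, followed by 18.7 and 58.4 at 6 and 12 h. Its ratio was 0.359 (counting interval 0.311 to 0.413), with a wider interval of 0.187 to 0.627. Its level at 6 h was near that at 3 h, and the 12 h library stood above both. Pcdhgc3, a gamma protocadherin, had 76.0 CPM at 1.5 h and 32.8 at 3 h, followed by 11.2 and 25.8 at 6 and 12 h, a ratio of 0.432 (counting interval 0.389 to 0.480). B3galt5, a glycosyltransferase, had 49.9 CPM at 1.5 h and 25.01 at 3 h, followed by 2.04 and 5.72 at 6 and 12 h, and Rptor, the mTORC1 scaffold, 52.7 CPM at 1.5 h and 28.9 at 3 h, followed by 8.41 and 13.2 at 6 and 12 h. In Pcdhgc3, B3galt5 and Rptor the 6 h and 12 h levels were below that at 3 h. Hal, the histidine ammonia-lyase of the epidermis, had 190.1 CPM at 1.5 h and 101 at 3 h, followed by 88.6 and 113 at 6 and 12 h, with a ratio of 0.534 (counting interval 0.502 to 0.567), and Ssr1, a subunit of the translocon-associated complex, 47.3, 21.2, 23.4 and 25.8 CPM at 1.5, 3, 6 and 12 h. Idh1, the cytosolic isocitrate dehydrogenase, had 49.0, 21.1, 35.5 and 42.4 CPM, and Dapl1, an epithelial differentiation gene, 83.8, 37.7, 41.3 and 61.8 CPM at the same times.

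Several of the lowest ratios were followed by higher levels. Prg2, the major basic protein of eosinophils, had 149.8 CPM at 1.5 h and 65.4 at 3 h, followed by 177 and 179 at 6 and 12 h, so the 3 h library alone stood low, with a ratio of 0.437 (counting interval 0.405 to 0.470). Mrpl14, a mitochondrial ribosomal protein, had 60.9, 30.3, 95.1 and 110.5 CPM at 1.5, 3, 6 and 12 h, and Aurkaip1, also of the mitochondrial ribosome, 64.8, 32.6, 122 and 72.7 CPM. Eif3i, a subunit of translation initiation factor eIF3, had 109, 57.6, 164 and 270.2 CPM, and Prmt1, the main arginine methyltransferase, 83.3, 44.1, 85.8 and 173 CPM. In each of these the 6 h level exceeded that at 1.5 h. Tsc22d3, a glucocorticoid-induced leucine zipper, had 60.2, 30.3, 56.3 and 36.6 CPM, and Emb, an embigin of the cell surface, 59.7, 25.9, 43.6 and 77.3 CPM. The 30 genes with the lowest upper limits had ratios of 0.359 to 0.579, all 30 had a wider interval below 1, and their median exonic length was 2198 bases against 3045 for all genes with at least 1000 reads.

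At the upper end stood Slc6a7, a proline transporter, at 168 CPM at 1.5 h and 560.5 at 3 h, followed by 167 and 78.4 at 6 and 12 h, with a ratio of 3.33 (counting interval 3.20 to 3.46). Aire was 2.27-fold higher at 3 h (counting interval 2.24 to 2.30, wider interval 2.17 to 2.37), at 1414 CPM at 1.5 h and 3211 at 3 h, followed by 2249 and 1819.9 at 6 and 12 h, from 29877 and 44803 reads. Both genes were highest at 3 h. Srrm2, a large scaffold protein of nuclear speckles, had 1442 CPM at 1.5 h and 3326 at 3 h, followed by 1064 and 655 at 6 and 12 h, a ratio of 2.31 (counting interval 2.27 to 2.34). Zfc3h1, which holds polyadenylated RNA in the nucleus, had 156, 379.9, 129.9 and 99.0 CPM at 1.5, 3, 6 and 12 h, and Leng8 171, 422, 136 and 89.3 CPM. Snrnp70, the U1 small nuclear ribonucleoprotein, had 171, 367, 287 and 230.1 CPM, and Pnisr, a serine and arginine rich protein, 168, 366, 252 and 49.2 CPM. Mki67, the proliferation marker Ki-67, had 182, 384, 255 and 198 CPM, Atrx, a chromatin remodeller, 211, 413, 159 and 77.3 CPM, and Ogt, the O-GlcNAc transferase, 145, 281, 252 and 79.6 CPM. Sspo, which codes for the very large SCO-spondin, reached 2497, 4769, 3072 and 1899 CPM. The remaining genes of this set include Ufsp1, Tmc6, Igfn1, Fam193b, Col27a1, Ikbke, Dock6, Ttc14 and Pabpn1. The 30 genes had ratios of 1.87 to 3.33 and a median exonic length of 6188.5 bases, and by the wider interval 7 of them lay wholly above 2.

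**Figure D2:**
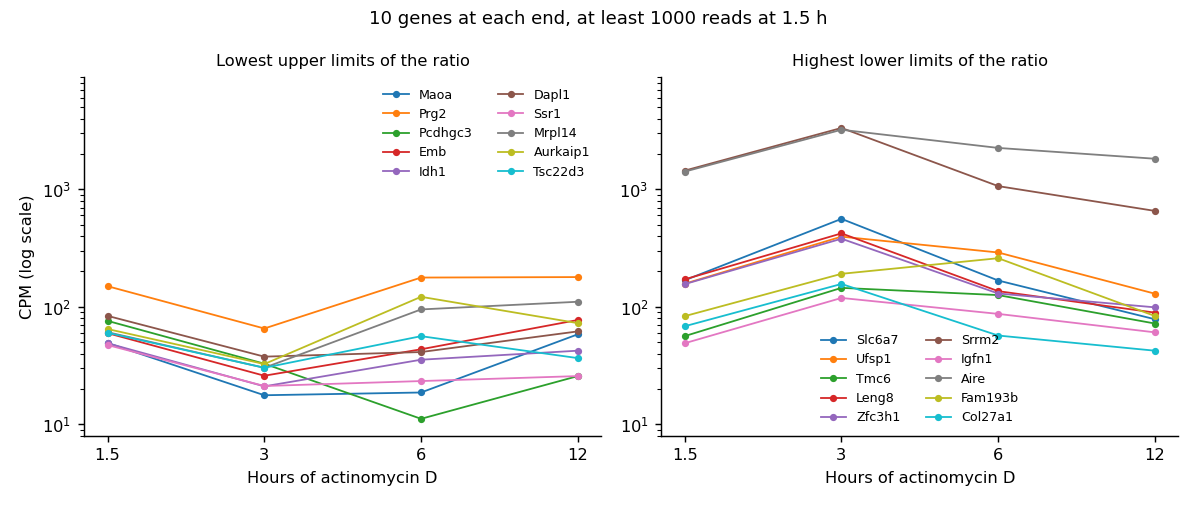
CPM on a log axis at 1.5, 3, 6 and 12 h for the 10 genes with the lowest upper limit of the ratio (left) and the 10 with the highest lower limit (right), among genes with at least 1000 reads at 1.5 h. Each line is a gene and each point 1 library. On the left Maoa and Pcdhgc3 were low at 3 h and at 6 h while Prg2 returned, and on the right Aire and Srrm2 stood at 3211 and 3326 CPM at 3 h.

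Immediate early genes code for transcription factors induced within minutes of a stimulus. All 31 listed genes were measured, 0 were at least 2-fold lower and 0 at least 2-fold higher, against 10.8% and 5.96% of all genes, but with a median of 1989 reads at 1.5 h they are well read, and 0.245% of entries with 1000 to 4999 reads were called lower. Their ratios ran from 0.659 to 1.64 with a median log2 ratio of 0.10, beside -0.04 for all genes. Fos had 929 CPM at 1.5 h and 809 at 3 h, followed by 519 and 372 at 6 and 12 h, a ratio of 0.871 (counting interval 0.851 to 0.891). Its partner Jun had 717 CPM at 1.5 h and 962 at 3 h, followed by 1414 and 369 at 6 and 12 h, a ratio of 1.34 (counting interval 1.31 to 1.37), and Junb 897 CPM at 1.5 h and 1283 at 3 h, followed by 932 and 609 at 6 and 12 h. Fos was thus lower at each later time with totals as the scale, although its 3 h level is slightly above that at 1.5 h when both are scaled to ribosomal protein reads, whereas Jun was highest at 6 h. Egr1, a zinc finger factor, had 761 CPM at 1.5 h and 982 at 3 h, followed by 779 and 294 at 6 and 12 h, and Fosb 468 CPM at 1.5 h and 762 at 3 h, followed by 497 and 158 at 6 and 12 h, with ratios of 1.29 (counting interval 1.26 to 1.32) and 1.63 (counting interval 1.59 to 1.68).

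Ratios of the other abundant members lay on both sides of 1. Members of a list that are named for having passed 2-fold or for standing at an end of the list, here and below, were chosen after their values were seen. Klf6 and Klf4, Krüppel-like factors, had ratios of 1.07 and 1.28, Jund 1.07, Ier2 1.25 and Atf3, a stress-induced factor, 0.928. The lowest ratio in the list was that of Ccn1, a secreted matrix protein, at 58.7, 38.7, 55.2 and 13.7 CPM, with a ratio of 0.659 (counting interval 0.594 to 0.729) and a wider interval of 0.432 to 0.966. Myc had 80.3, 85.6, 142 and 45.2 CPM, a ratio of 1.07 (counting interval 0.989 to 1.15). By the wider interval 2 of the 31 genes, Ccn1 and Fos, lay wholly below 1 and 12 wholly above 1. The shares were 5.47% and 8.51% of all genes, and 17.2% and 16.9% of genes with at least 1000 reads at 1.5 h.

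The levels of these genes differed more outside the 1.5 to 3 h interval. At 1.5 h 30 of the 31 had a lower CPM than at 0 h, against 9746 of all 15750 genes. The 21 with at least 1000 reads had a median log2 ratio of -0.75 for 1.5 h over 0 h, beside -0.02 for all such genes. Fos went from 1719.5 CPM at 0 h to 929 at 1.5 h, Egr1 from 1562 to 761, and Dusp1 from 504 to 189, but kit and treatment cannot be told apart there. The 6 h and 12 h libraries are of the same kit, and the 3 h to 1.5 h comparison does not use them. For 12 h over 6 h these 21 genes had a median log2 ratio of -1.25, beside -0.07 for all. At 12 h 19 of the 21 were lower, against 1842 of all 3421 genes with at least 1000 reads.

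**Figure D3:**
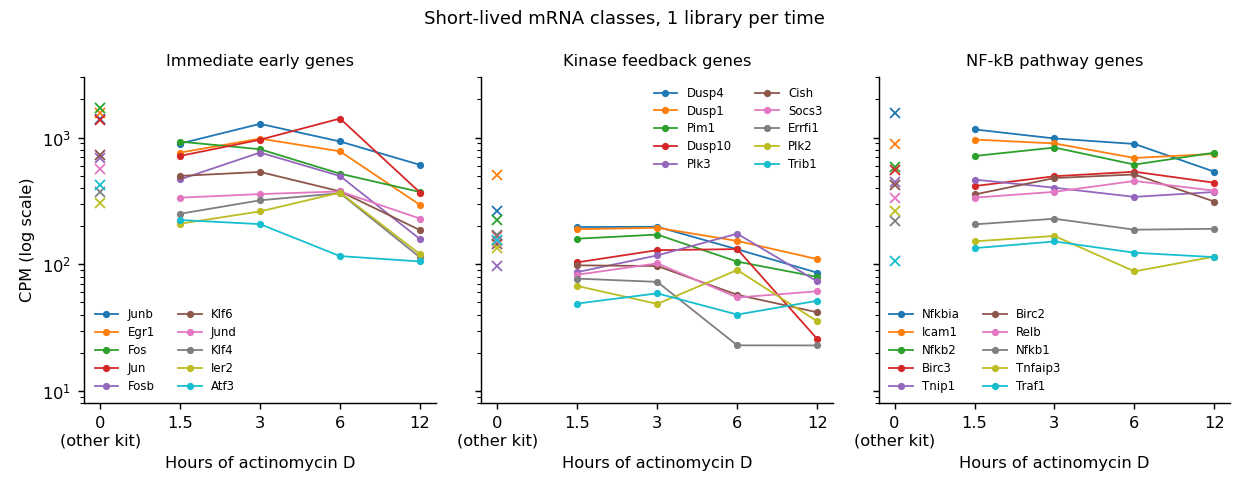
CPM on a log axis of the 10 most abundant measured genes in each of 3 classes at 1.5, 3, 6 and 12 h, joined by lines, with the 0 h library of the other kit as crosses. Each point is 1 library. Between 1.5 and 3 h the lines run level or slightly upward in most genes, while Plk2, Nfkbia, Tnip1 and Fos run downward most, and between 6 and 12 h most immediate early genes run downward.

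Feedback inhibitors of kinase signalling gave a like result. Of 23 measured genes 2 were at least 2-fold lower, against 10.8% of all genes, and both had few reads: Dusp2, a nuclear phosphatase of ERK, with 125 reads at 1.5 h and 12 at 3 h, and Spry4, an inhibitor of receptor tyrosine kinase signalling, with 58 and 10. Their wider intervals ran up to 1.21 and 2.58. The whole list had a median of 1035 reads at 1.5 h, and at 1000 to 4999 reads 0.245% of entries were called lower. The abundant members Dusp1 and Dusp4, phosphatases of MAP kinases, had 189, 194, 153 and 109.9 CPM and 197, 198, 131 and 85.9 CPM at 1.5, 3, 6 and 12 h, with ratios of 1.03 (counting interval 0.976 to 1.08) and 1.00 (counting interval 0.957 to 1.05). Pim1, a kinase, had a ratio of 1.08, Cish and Socs3, inhibitors of cytokine receptors, 0.987 and 1.23, Dusp10 1.25, Plk3 1.35, Errfi1, which blocks the EGF receptor, 0.943, Trib1 1.20 and Plk2 0.721. The list's median log2 ratio was 0.01.

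Genes of the NF-kB pathway, which is active in mTEC, did not pass 2-fold either way in any of 23 measured cases, with ratios of 0.849 to 1.68. The shares of all genes were 10.8% lower and 5.96% higher, but this list had a median of 2808 reads at 1.5 h. At 1000 to 4999 reads 0.245% of entries were called lower and 0.490% higher. Nfkbia had 1159.7 CPM at 1.5 h and 984 at 3 h, followed by 891 and 538 at 6 and 12 h, a ratio of 0.849 (counting interval 0.831 to 0.867) with a wider interval of 0.785 to 0.916, the lowest of the list. Icam1, an adhesion molecule induced by NF-kB, had 965, 899, 690.3 and 744 CPM at these times, and Tnip1, a partner of Tnfaip3, 466, 402, 340.5 and 372 CPM. Birc2 and Birc3, inhibitors of apoptosis, had ratios of 1.35 and 1.20, the subunits Nfkb1, Nfkb2 and Relb 1.11, 1.17 and 1.11, Tnfaip3 1.10 and Traf1 1.13.

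Among cytokines and growth factors 2 of 31 measured genes were at least 2-fold lower and 0 higher, shares not above the 10.8% and 5.96% of all genes, with a median log2 ratio of -0.03. The list had a median of 498 reads at 1.5 h, and at 200 to 499 reads 7.04% of entries were called lower and 2.98% higher. The lower pair had few reads: Il1a, an alarmin, with 113 at 1.5 h, 20 at 3 h and 146 at 6 h, and Ereg, an EGF receptor ligand, with 36, 0 and 0. Its relatives Hbegf and Areg, chosen after their values were seen, had ratios of 0.543 (counting interval 0.436 to 0.672) and 0.559 (counting interval 0.470 to 0.664), with wider intervals of 0.195 to 1.21 and 0.256 to 1.07. The most abundant member, the T cell attractant Ccl25, had 482 CPM at 1.5 h and 359 at 3 h, followed by 420.0 and 519 at 6 and 12 h, a ratio of 0.744 (counting interval 0.719 to 0.769), and Cxcl10, an interferon-induced chemokine, 259.5 CPM at 1.5 h and 199 at 3 h, followed by 268 and 241 at 6 and 12 h. Both were lower at 3 h than at the times on either side. Ccl27a had a ratio of 1.18.

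Target genes of the Notch, TGF-beta, BMP and Wnt pathways held the largest share of lower calls, 7 of 19 measured genes with 1 higher, against 10.8% and 5.96% of all genes. No chance test was made of this share, and their median of 199 reads at 1.5 h compares with 329 for all genes. Id2 and Id3, which bind and silence bHLH factors, were the best read of the lower ones: Id2 had 27.1 CPM at 1.5 h and 9.604 at 3 h, followed by 38.7 and 37.8 at 6 and 12 h, a ratio of 0.354 (counting interval 0.291 to 0.428) with a wider interval of 0.138 to 0.748, and Id3 33.5 CPM at 1.5 h and 16.7 at 3 h, followed by 6.73 and 28.6 at 6 and 12 h, a ratio of 0.498 (counting interval 0.428 to 0.579) with a wider interval of 0.253 to 0.886. In both the wider interval lay below 1, but Id2 stood higher at 6 h and 12 h than at 1.5 h. Hey1 and Heyl, Notch-induced repressors, went from 90 to 11 and from 148 to 23 reads, Nrarp, a Notch feedback gene, from 83 to 20, Id4 from 58 to 16 and Nkd1, a Wnt inhibitor, from 44 to 0. Smad7, the inhibitory Smad, went the other way, from 108 to 214 reads. The best read members, Tgif1, Skil and Hes6, had ratios of 1.27, 1.16 and 1.42.

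Splicing regulators stood highest of the lists. Of 32 genes measured, 28 had a ratio above 1, 2 (Srrm2 and Pnisr) were at least 2-fold higher and 0 lower. The median log2 ratio was 0.37, and the wider interval lay wholly above 1 in 19. Of all 15750 genes 7429 had a ratio above 1, 5.96% were at least 2-fold higher and 10.8% lower. By the wider interval 8.51% of all genes, and 16.9% of those with at least 1000 reads at 1.5 h, lay wholly above 1. Of genes with at least 1000 reads, 0.526% were at least 2-fold higher. Son, a partner of Srrm2 in speckles, had 795 CPM at 1.5 h and 1161 at 3 h, followed by 548 and 402 at 6 and 12 h, a ratio of 1.46 (counting interval 1.43 to 1.49). Hnrnpa2b1, an RNA-binding protein, had a ratio of 1.16. Of the SR proteins, chosen after their values were seen, Srsf1, Srsf5 and Srsf7 had ratios of 1.72, 1.71 and 1.55, and Srsf9 0.709. Between 6 h and 12 h 21 of the 25 genes with at least 1000 reads were lower, against 1842 of all 3421 such genes. Their median log2 ratio was -0.50.

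RNA-binding proteins that act on AU-rich and Pumilio elements had a median log2 ratio of 0.24 over 14 genes. None passed 2-fold, but their median was 768 reads at 1.5 h. At 500 to 999 reads 1.60% of entries were called lower and 1.03% higher. Zfp36 had 848 CPM at 1.5 h and 1051 at 3 h, followed by 580.5 and 372 at 6 and 12 h, a ratio of 1.24 (counting interval 1.21 to 1.27), Zc3h12a, an RNase that cuts inflammatory messages, a ratio of 1.36, and Pum2 1.00. Of 38 genes of the mRNA decay machinery, 3 subunits of the exosome (Exosc1, Exosc2 and Exosc5) were at least 2-fold lower and Exosc7 2.10-fold higher, all with fewer than 500 reads at 1.5 h. These shares, 7.89% and 2.63%, lay below those of all genes (10.8% and 5.96%). They lay above the shares of entries with 500 to 999 reads, the band that holds the list's median of 604 reads. Tob1, an adaptor of deadenylation, Cnot1, the scaffold of the CCR4-NOT complex, and Pan2, a deadenylase, had ratios of 1.22, 1.11 and 1.76. The 303 numbered zinc finger genes, a pattern that also takes in Zfp36, had a median log2 ratio of 0.17, with 33 at least 2-fold lower (10.9%, against 10.8% of all genes) and 29 higher (9.57%, against 5.96%). Their median was 201 reads at 1.5 h, beside 329 for all genes. At 100 to 199 reads 14.7% of entries were called lower and 6.70% higher, and at 200 to 499 reads 7.04% and 2.98%. Zfp318 and Zfp750 had ratios of 1.39 and 1.13.

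Lists of metabolism, translation and protein turnover had medians below that of all genes, as had microfold and p53 target genes (-0.32 and -0.27) and other lists described here. Of 79 ribosomal protein genes 76 had a ratio below 1, none passed 2-fold, and their median log2 ratio was -0.23. Of all 15750 genes 8321 had a ratio below 1, 10.8% were at least 2-fold lower and 5.96% higher. The ribosomal protein list had a median of 3859 reads at 1.5 h, and at 1000 to 4999 reads 0.245% of entries were called lower. Rpl4, Rplp0 and Rpl7 had ratios of 0.875, 0.830 and 0.868. Oxidative phosphorylation subunits had a median of -0.30 over 82 genes, with Atp5b, of the ATP synthase, at 1452 CPM at 1.5 h and 1157 at 3 h, followed by 1518 and 2115 at 6 and 12 h, a ratio of 0.796 (counting interval 0.781 to 0.812), Atp5a1 at a ratio of 0.735 and Cox4i1 at 0.808. Proteasome subunits had a median of -0.33 over 38, and Psmb10, an immunoproteasome subunit, 318 CPM at 1.5 h and 203 at 3 h, followed by 587 and 464 at 6 and 12 h, a ratio of 0.639 (counting interval 0.611 to 0.668). In Psmb10 as in Rplp0, with 1243, 1032, 2158 and 3992 CPM, the 6 h level was the higher one. Psmd2 and Psma6 had ratios of 0.827 and 0.843.

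Glycolytic enzymes had a median log2 ratio of -0.32 over 14 genes. Aldoa, Pkm and Ldha had ratios of 0.788, 0.810 and 0.727, while Pfkl, the liver phosphofructokinase, chosen after its value was seen, was at 1.83. Usual reference genes had a median of -0.35 over 15, with B2m and Ubb at 0.931 and 0.774. All 19 lysosomal genes had a ratio below 1, against 8321 of all 15750 genes, with Psap, Npc2 and Ctsz at 0.914, 0.693 and 0.797. Translation factors had a median of -0.21 over 63, and 20 of them were above 1, against 7429 of all genes. Eef1a1, Eef2 and Eif4g2 were at 0.806, 0.858 and 0.824. Eif2b1 and the Y-linked Eif2s3y stood at the ends of the translation factor list at 0.397 and 3.05. None of the lysosomal, glycolytic or reference genes passed 2-fold, beside 10.8% of all genes lower and 5.96% higher. These 3 lists had medians of 3370, 1885 and 4429 reads at 1.5 h, and at 1000 to 4999 reads 0.245% of entries were called lower. Scaled to summed ribosomal protein reads, all log2 ratios would stand 0.23 higher, which puts the medians of ribosomal proteins, translation factors and lysosomal genes near 0 and leaves their order against other lists as it is. Between 6 h and 12 h the median log2 ratio was 0.60 for ribosomal proteins, 0.42 for glycolysis and 0.19 for oxidative phosphorylation among genes with at least 1000 reads.

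Heat shock genes, chaperones induced by stress to proteins, had lower shares at the end of both intervals with totals as the scale, while scaling to ribosomal protein reads puts their early median near 0. Of 18 measured 17 had a ratio below 1, with a median log2 ratio of -0.23, and the wider interval lay wholly below 1 in 8. Of all 15750 genes 8321 had a ratio below 1. By the wider interval 5.47% of all genes, and 17.2% of those with at least 1000 reads at 1.5 h, lay wholly below 1. Hspa1a and Hspa1b, the inducible Hsp70 genes whose near-identical sequences can share reads, had 3972 CPM at 1.5 h and 2934 at 3 h, followed by 3039 and 1083 at 6 and 12 h and 4062 CPM at 1.5 h and 3030.3 at 3 h, followed by 2894 and 1108 at 6 and 12 h. Hsp90ab1 had a ratio of 0.803 (counting interval 0.795 to 0.812) and Hspa8, chosen after its value was seen, 0.687 (counting interval 0.675 to 0.700). Between 6 h and 12 h 16 of the 18 were lower, with a median of -0.67, against 1842 of all 3421 genes with at least 1000 reads. p53 target genes had a median log2 ratio of -0.27 over 18 genes, with Perp at 0.667, Trp53inp1 at 1.18 and Mdm2, which marks p53 for degradation, at 275 CPM at 1.5 h and 352 at 3 h, followed by 238 and 127 at 6 and 12 h, a ratio of 1.28 (counting interval 1.23 to 1.33). In the Bcl-2 family Mcl1, a survival factor, had 116 CPM at 1.5 h and 124 at 3 h, followed by 36.9 and 87.0 at 6 and 12 h, a ratio of 1.06 (counting interval 1.00 to 1.13), and Bcl2l1 and Bax 0.915 and 0.816.

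The other lists lay between. Median log2 ratios were 0.10 over 18 circadian genes, 0.17 over 21 chromatin regulators, -0.14 over 29 Mediator subunits, 0.16 over 16 genes of the miRNA machinery, -0.03 over 34 cell cycle genes, 0.13 over 42 replication histones, -0.08 over 15 stress response genes and 0.10 over 19 interferon-stimulated genes. Per1, a clock gene, had 117 CPM at 1.5 h and 209 at 3 h, followed by 131 and 76.7 at 6 and 12 h, a ratio of 1.78 (counting interval 1.69 to 1.88), with Nr1d1 and Bhlhe40 at 1.13 and 1.02. Kmt2d, a histone methyltransferase, and Med12, of the Mediator kinase module, had ratios of 1.65 and 1.58, Brd2 1.04, Ppp1r15a 1.19, Atf4 1.02, Irf1 1.23 and Pcna 0.879. Long noncoding RNAs, snoRNAs and miRNAs were not analysed here.

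**Figure D4:**
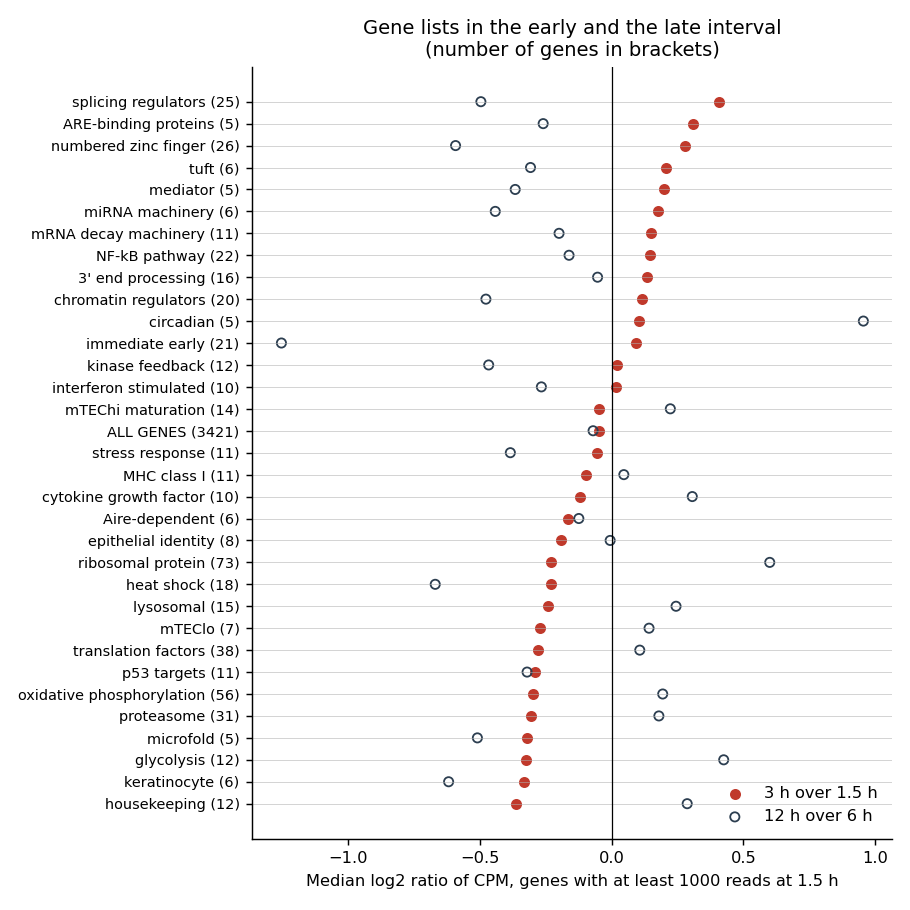
Median log2 ratio of CPM for each gene list, over its genes with at least 1000 reads at 1.5 h, for 3 h over 1.5 h (filled) and 12 h over 6 h (open), which use different libraries. Lists with at least 5 such genes are shown, ordered by the early value. Early medians run from -0.36 for reference genes to 0.41 for splicing regulators, and late medians from -1.25 for immediate early genes to 0.96 for circadian genes.

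Transcript length moved with the ratio. Among genes with at least 1000 reads the median log2 ratio was -0.26 for the 91 with an exonic length under 600 bases, -0.21 for the 279 of 1000 to 1499 bases, -0.10 for the 731 of 2000 to 2999 bases and 0.22 for the 562 of 6000 bases or more. A ratio of at most 0.8 was found in 38.5% of the shortest and 4.98% of the longest, and one of at least 1.25 in 1.10% and 36.7%. Between 6 h and 12 h the order was the opposite, from 0.34 in the shortest to -0.36 in the longest. The part of length in the differences between gene lists was looked at by taking, for each gene, its log2 ratio minus the median of the genes outside its list in the same length band. Splicing regulators then stood at 0.50, with 24 of 25 above their band, immediate early genes at 0.17, with 16 of 21 above, and ribosomal proteins at 0.03, with 40 of 73 above. Heat shock genes were at -0.22, reference genes at -0.20 and glycolytic enzymes at -0.19. Set beside other transcripts of their length, the ribosomal proteins thus stood on both sides of the band median, and splicing regulators, heat shock and reference genes mostly on 1 side. What else goes with length was not tested.

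**Figure D5:**
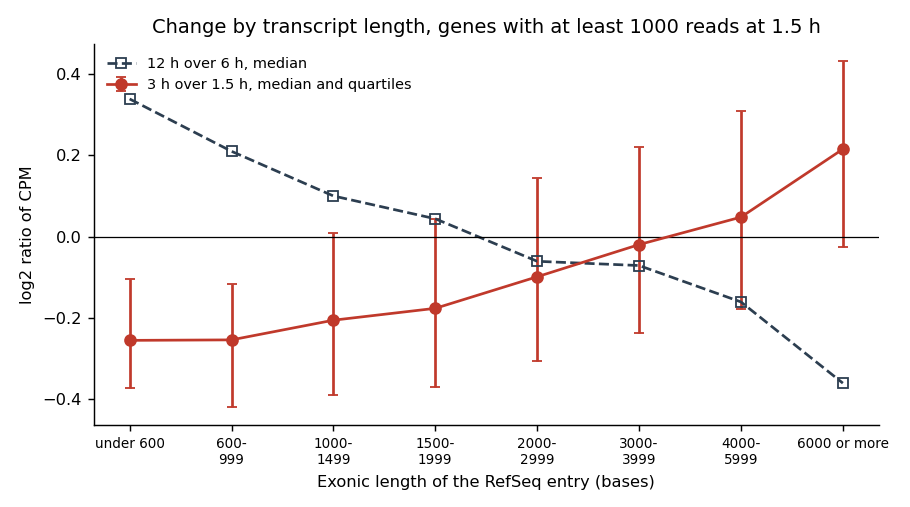
Median log2 ratio of CPM by exonic length of the RefSeq entry in bases, for genes with at least 1000 reads at 1.5 h. Filled circles with bars are the median and quartiles of 3 h over 1.5 h, and open squares the median of 12 h over 6 h. The early medians run upward with length from -0.26 to 0.22 and the late ones downward from 0.34 to -0.36.

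AU-rich elements went with small differences. A 3' UTR of build mm9 was matched for 3157 of the genes with at least 1000 reads, 92.3% of them. The median log2 ratio was -0.09 in the 1197 genes with no ATTTA and -0.01 in the 497 with 5 or more. It was -0.07 without the nonamer TTATTTATT, 0.09 in the 161 genes with 1 and -0.08 in the 35 with more. Genes with these elements are longer, and within a length class the order of ATTTA turned: among entries of 2000 to 3999 bases the median was -0.0038 without ATTTA and -0.10 with it, and at 4000 bases or more 0.20 and 0.08. Below 2000 bases it was -0.20 and -0.23. The nonamer did not show this order within length classes. Without and with it the medians were -0.07 and -0.02 at 2000 to 3999 bases and 0.10 and 0.12 at 4000 bases or more. Below 2000 bases they were -0.21 and -0.21. The genes with the nonamer numbered 53, 125 and 18 in these 3 classes. No test was made of these gaps.

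The 8 genes whose AU-rich windows are printed above had ratios of 0.871 for Fos, 1.24 for Zfp36, 0.849 for Nfkbia, 1.03 for Dusp1, 0.987 for Cish, 1.20 for Birc3, 0.721 for Plk2 and 1.35 for Plk3. Of these, Fos, Nfkbia and Plk2 were below 0.9 and Birc3, Zfp36 and Plk3 above 1.1, although all carry the same nonamer. The Pumilio motif TGTANATA, where N is any base, gave medians of -0.08 without it, -0.03 with 1 copy and 0.04 with more, and within entries of 2000 to 3999 bases -0.06 without and -0.10 with it. It was found in 19.7% of all 3' UTRs searched, on the sense strand. A match of letters is a description and not a measured binding site.

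Of 15 maturation genes of mTEChi 0 were at least 2-fold lower and 1, Aire, higher, against 10.8% and 5.96% of all genes. Their median was 7657 reads at 1.5 h, and of entries with 5000 reads or more 0% were called lower and 0.358% higher. H2-Aa and H2-Ab1, chains of MHC class II, had 9549.8, 7569, 9498 and 12537 CPM and 6369.8, 5709, 6574 and 9316 CPM at 1.5, 3, 6 and 12 h, with ratios of 0.793 and 0.896, and Cd74, the invariant chain, 0.889. MHC class I genes had a median log2 ratio of -0.10 over 11, with H2-K1 at 1.02 and H2-D1 at 0.999. Krt8 and Krt18, keratins of simple epithelia, were at 0.871 and 0.876 and Cldn4, a claudin of tight junctions, at 0.963. Since Aire was measured at 804, 1414, 3211, 2249 and 1819.9 CPM at 0, 1.5, 3, 6 and 12 h, its share at 3 h was the highest of the 5 libraries, and it remained above the 1.5 h share in both later ones.

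Genes known to depend on Aire had a median log2 ratio of -0.18 over 16, with Csn2, beta-casein, at 1469 CPM at 1.5 h and 1270.0 at 3 h, followed by 1727 and 1539.9 at 6 and 12 h, a ratio of 0.865 (counting interval 0.849 to 0.881), Apoa4, an apolipoprotein, at 0.899 and S100a8 at 1.06. The study's own list of Aire-sensitive genes with a proximal polyadenylation site, chosen by its authors on the wild-type and Aire-KO libraries, had 699 of 947 entries with at least 20 reads at 1.5 h. Of these, 138 (19.7%) were at least 2-fold lower and 85 (12.2%) higher, beside 10.5% and 5.78% of all entries, but the list holds many entries with few reads. In entries of 20 to 49 reads 32.2% of the list and 34.7% of other entries were lower, and in those of 100 to 199 reads 22.1% and 14.4%. Higher calls made up 23.3% of the list and 19.3% of other entries at 20 to 49 reads. They made up 19.05% and 13.5% at 50 to 99 reads, and 2.14% and 6.93% at 100 to 199 reads. The median log2 ratio was 0.098 in the list and -0.054 in others at 20 to 49 reads. It was -0.028 and 0.033 at 50 to 99 reads, and -0.20 and -0.02 at 100 to 199 reads. At 200 to 499 reads it was -0.14 and -0.02, and at 500 to 999 reads -0.12 and -0.04. The 33 entries of the list with at least 1000 reads had a median of -0.05, beside -0.04 for the others. No test was made of these gaps.

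Clp1, the cleavage factor that the study examined for its part in 3' UTR shortening, had 723 and 365 reads, or 34.2 CPM at 1.5 h and 26.2 at 3 h, followed by 65.2 and 19.5 at 6 and 12 h. Its ratio was 0.764 (counting interval 0.672 to 0.868), and its wider interval, 0.451 to 1.22, included 1. Among 28 genes of 3' end processing 0 were 2-fold lower and 0 2-fold higher, with ratios of 0.616 to 1.98. The shares of all genes were 10.8% and 5.96%, but this list had a median of 1083.5 reads at 1.5 h. At 1000 to 4999 reads 0.245% of entries were called lower and 0.490% higher. Ddx5 and Ddx17, RNA helicases, had ratios of 1.16 and 1.32, and Pabpc1, the cytoplasmic poly(A) binding protein, 0.864. Chosen after their values were seen, Cpsf3, the nuclease that cuts the pre-mRNA, and Pcf11, a termination factor, had ratios of 0.616 (counting interval 0.553 to 0.684) and 1.63 (counting interval 1.53 to 1.74). Pabpn1, the nuclear poly(A) binding protein, also chosen after its value was seen, was at 1.98 (counting interval 1.87 to 2.10). The log2 ratio of the Pabpc1 message, -0.21, is smaller than the shift of 0.23 under ribosomal protein scaling, so its side of 1 depends on the scaling.

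Lists of the small populations within the medulla held genes on both sides of 1. Above 1 were 8 of 14 tuft genes, 3 of 11 keratinocyte genes and 2 of 7 microfold genes, against 7429 of all 15750 genes. The ends of these lists were Il25 at 0.497 and Trpm5 for tuft cells, Krt1 at 0.607 and Krtdap at 2.61 for keratinocytes, and Sox8 at 0.453 and Ccl9 at 1.24 for microfold cells. Il25 went from 125 to 41 reads, Krtdap from 80 to 138 and Sox8 from 137 to 41. Their wider intervals, 0.0617 to 1.83, 0.991 to 5.82 and 0.0564 to 1.66, all included 1. Trpm5, a channel of tuft cells, had 111 CPM at 1.5 h and 189 at 3 h, followed by 58.7 and 40.6 at 6 and 12 h, a ratio of 1.69 (counting interval 1.60 to 1.79), with Plcb2 at 1.61 and Avil at 0.907. Gp2, a receptor of microfold cells, had 217 CPM at 1.5 h and 126 at 3 h, followed by 249 and 175 at 6 and 12 h, a ratio of 0.579 (counting interval 0.548 to 0.612) with a wider interval of 0.463 to 0.716, with Tnfrsf11b at 0.705 and Marcksl1 at 0.7998. Krt10, of keratinising cells, had 351 CPM at 1.5 h and 264 at 3 h, followed by 147 and 81.3 at 6 and 12 h, a ratio of 0.754 (counting interval 0.724 to 0.784), and was lower at each later time, with Dsg1a at 0.876 and Spink5 at 0.915. Krt14 and Krt5, keratins of mTEClo, were at 0.688 and 0.869 and Itgb4 at 1.06.

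The label of the cells was checked on markers. All 12 mTEC and mTEChi markers were read in both libraries and summed to 26578 CPM at 1.5 h and 24671 at 3 h. The 10 thymocyte markers summed to 45.4 and 38.8 CPM, with Cd8a, Cd8b1 and Ptcra at 0 at 3 h, 4 B cell markers to 23.3 and 23.4, 8 dendritic cell and macrophage markers to 359 and 342, 5 fibroblast markers to 324 and 295 and 4 endothelial markers to 25.6 and 19.2 CPM. Markers of mTEClo summed to 1119 and 906, of cortical epithelium to 322 and 329, of tuft cells to 301 and 367, of microfold cells to 385 and 267 and of keratinocytes to 448 and 339 CPM. No marker beyond those 3 was at 0. The longer gene lists of these cell types gave sums of 111 and 93.9 CPM for thymocytes, 171 and 179.9 CPM for B cells, 476 and 487 CPM for dendritic cells and macrophages, 480.0 and 519 CPM for fibroblasts and 121 and 132 CPM for endothelium, so that the short and long lists differ in direction for fibroblasts, endothelium and dendritic cells and macrophages. None of these sums was near that of the mTEC markers, and their part in the ratios was not tested.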

How the data were processed

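RNA of sorted mTEChi was sequenced in 1 library per time of actinomycin D. Per the labels and methods, the authors aligned the reads to mouse build mm9 with Bowtie 1.0.0 after the CASAVA filter and counted those within RefSeq exons with bedtools. The deposited values used here are raw counts of reads per entry, without normalisation, and the authors' exonic length per entry, deposited with the Aire-KO comparison, in bases. The count columns carry no sample name, and the column that is identical in the files of all treated times was read as the 0 h library and the other as the treated one. DESeq values of the other libraries and the deposited fold changes and p-values were not used. Totals were 91610143, 21124165, 13953047, 11295960 and 1746825 reads for 0, 1.5, 3, 6 and 12 h, and a floor of 3 reads is 0.142 CPM at 1.5 h and 0.215 at 3 h.

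CPM, ratios and intervals were computed with Python 3.11.15, pandas 2.3.3 and scipy 1.17.1. The calculation was run on simulated data, which checks the arithmetic only. Such a run cannot show that either interval covers the spread of these libraries. At 3 h the share of low entries without reads was far above that of a Poisson count. Alternative scalings were computed with edgeR 4.0.16 and DESeq2 1.42.0 in R 4.3.3, which were used for size factors only. Symbols, from the RefSeq table of GRCm38.p6 for names only, matched 97.9% of entries, and lengths 99.5% of members. For gene lists the entry with most reads stood for a symbol, since 4169 member entries had the same reads as another entry of their gene. The 3' UTR came from the GENCODE vM1 transcript nearest in length. The TruSeq kit is labelled non-directional, and the strand setting of the counts is not given in the sources used here, so antisense or near-identical genes cannot be told apart. Genes named were Aire, Clp1, the up to 10 most abundant members of the 3 signalling lists, up to 3 of every other list, and the 30 and 15 genes at the ends of the counting interval, others being marked where named. A window and a gene that these rules pick are not reported here. The members and lists were chosen with earlier results of these data known. Alternatives covered scaling, the minimum of reads, isoforms, the floor, thinning, the limit of fold, the interval and length.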

Additional observations from a re-analysis of the deposited data

How the results depend on the processing

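The counts of calls depended on how low counts were treated. Against 2161 entries lower and 1192 higher, 837 and 398 were called with at least 100 reads at 1.5 h, 10 and 22 with at least 1000 reads (added after the data were seen), 1310 and 406 with the counting interval wholly past 2-fold, 1111 and 86 with a limit of 4-fold, and 0 and 44 with the wider interval (also added). The divisor of the wider interval at 3 h was drawn from the entries at 0, so its counts give no balance of directions. With no minimum 2835 were lower and 2734 higher, with a mean of at least 20 reads over both libraries 1578 and 1484, and with scaling to ribosomal protein reads 1754 and 2087. The median log2 ratio of all entries, -0.03, became 0.19 under that scaling, -0.0585 with totals less the 100 entries with most reads, -0.000143 with the minimum on both libraries and -0.00749 with none. TMM, DESeq2 size factors, 1 entry per symbol, 0.5 added reads and thinning kept both counts within 1.5 times, as did subtraction of the length band, with 2076 lower and 1311 higher. Why each of these settings moved a value was not tested.

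Of 42 lists with at least 6 genes, 22 had a median below that of all genes, and 19 to 24 under the alternatives. The gap between the longest and shortest transcripts was 0.47 log2 units among genes with at least 1000 reads and 0.38 with at least 20. Named genes past 2-fold stayed on their side of 1 under every scaling tried, while those nearer 1 and list medians just below 0, such as Fos and the translation factors, crossed it with ribosomal protein scaling. No limit of detection was calculated. At 100 to 199 reads at 1.5 h 14.7% of entries were called lower and 6.70% higher. With more reads the wider interval could still include 1, as for Clp1 with 723 reads, at 0.451 to 1.22. With 1 library per time the difference between libraries and between times cannot be told apart. No paired analysis was possible because each time has 1 library.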
